A study of Mus musculus with 6 samples.

Results

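The 39 genes described here are induced by interferons, and they were taken by name from the 43280 rows of an RNA-seq count table of mouse submandibular glands (SMGs). They comprise 15 GTPases of the IRG and GBP families, which are textbook targets of interferon-gamma. A further 19 are antiviral genes that are textbook targets of type I interferon, and 5 are transcription factors of the interferon pathways. The classes are a convention, and which interferon acted on a gene in these glands was not tested. The genes were listed with the difference between the groups known, and the values that chose them are the same DKO and WT counts that are given below. Their differences between the groups are therefore a description, and no test over the list was made.

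SMGs of female mice were compared between 3 WT libraries and 3 libraries labelled DKO, in which both Hs3st3a1 and Hs3st3b1, enzymes that add a sulfate group to heparan sulfate, were inactivated in the germline. The DKO allele combines a short frameshift deletion, made with zinc finger nucleases in the first exon of Hs3st3a1, with a LacZ cassette in Hs3st3b1 on the same chromosome. All mice were adult and on a C57BL/6 background, with WT littermates as controls, whereas an age in weeks and the founder line of each library are not given in the sources used here. Libraries of either group carry the numbers 1, 4 and 5. The study's methods count 3 glands in each group, which is the number of libraries. Neither they nor the labels say whether these came from separate animals, so that p-values measure only the spread between these libraries.

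Interferons are secreted proteins that bind receptors on the cell surface and act through JAK kinases and STAT transcription factors. Type I interferons act mainly through a complex that includes Stat2 and Irf9 and binds an element called ISRE, whereas interferon-gamma, made by T cells and NK cells, acts mainly through an element called GAS and through Irf1. The IRG and GBP proteins gather on the membranes around intracellular parasites and bacteria, while products such as the Ifit, Mx and Oas proteins restrict viral RNA and viral assembly. Many cell types can transcribe these genes, epithelial cells and leukocytes included, and in RNA from a whole gland fewer cells of a type and less RNA per cell cannot be told apart.

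The counts of the targeted genes did not separate the groups. Hs3st3a1 had 15, 11 and 15 counts in the libraries WT 1, 4 and 5 and 11, 8 and 13 in DKO 1, 4 and 5, and Hs3st3b1 had 173, 203 and 261 against 255, 120 and 189. A short deletion, as in Hs3st3a1, need not lower the count of a gene. Hs3st3b1 carries a LacZ cassette instead, and why its counts did not separate the groups was not tested. The counts of both genes thus do not show their inactivation and give no check of the labels either way. Of 6 epithelial markers that are not interferon targets, 2 fell and 1 rose in DKO by DESeq2, where 3.36% of all rows with an adjusted p-value passed. Bhlha15, Krt19 and Spt1 did not pass. The 6 were listed with earlier results of these data known, so they give no check of the labels either. Acta2, the smooth muscle actin of myoepithelial cells, had 2695, 2429 and 2468 normalized counts (counts divided by the size factor of the library) in the WT and 1730, 1456 and 1345 in the DKO libraries (log2 fold change -0.74, DESeq2 adjusted p = 1.49e-07). Egf, a product of the granular ducts, was lower as well (-0.69, DESeq2 adjusted p = 1.6e-05) and the acinar water channel Aqp5 was higher (0.54, DESeq2 adjusted p = 0.0165), while by edgeR and by limma-voom 0 of the 6 epithelial markers passed. Total counts ranged from 23674258 to 29611975. Gland identity was clear in all 6 libraries, with Aqp5 between 3983 and 8161 normalized counts and the acinar transcription factor Bhlha15 between 5714 and 6796. The library WT 1 stood apart from the other WT libraries for the interferon-inducible genes. It held the highest and WT 4 the lowest of the WT values in 38 of the 39 genes, Gbp9 being the exception, against 19.7% of the 18606 rows tested, and results are therefore given with and without it.

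All 39 genes passed the filter of 10 counts summed over the libraries, and all 39 had a lower mean in DKO than in WT glands. Over all rows tested, 49.8% did. With DESeq2, 17 of the 39 had an adjusted p-value under 0.05, all of them lower in DKO, against 3.36% of all rows with an adjusted p-value and 2.18% when only lower rows are counted. The list was chosen on this contrast, so nothing is read from that excess. By edgeR and by limma-voom on the same rows 0 of the 39 passed, where 0.0537% and 0.0376% of all rows did. Unadjusted p-values under 0.05 were seen in 32 of the 39 by DESeq2, 32 by edgeR and 28 by limma-voom, against 12.2%, 15% and 14.0% of all rows.

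The GTPases differed more between the groups than the antiviral genes. The median log2 fold change of DKO over WT was -2.26 for the 15 GTPases (range -3.00 to -1.27, a median of 4.79-fold lower), -1.07 for the 19 antiviral genes (range -2.12 to -0.49, 2.10-fold lower) and -0.58 for the 5 regulators, while the median of all rows was 0.00. The difference between the first and second of these medians was -1.19. Of the GTPases 10 of 15 passed the DESeq2 threshold, of the antiviral genes 6 of 19 and of the regulators 1 of 5. Every DKO library lay below every WT library in 13 of the 15 GTPases, in 7 of the 19 antiviral genes and in 2 of the 5 regulators, where 10.5% of all rows tested showed that order. The classes were compared with these values known, and the difference between them was not tested.

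**Figure D1:**
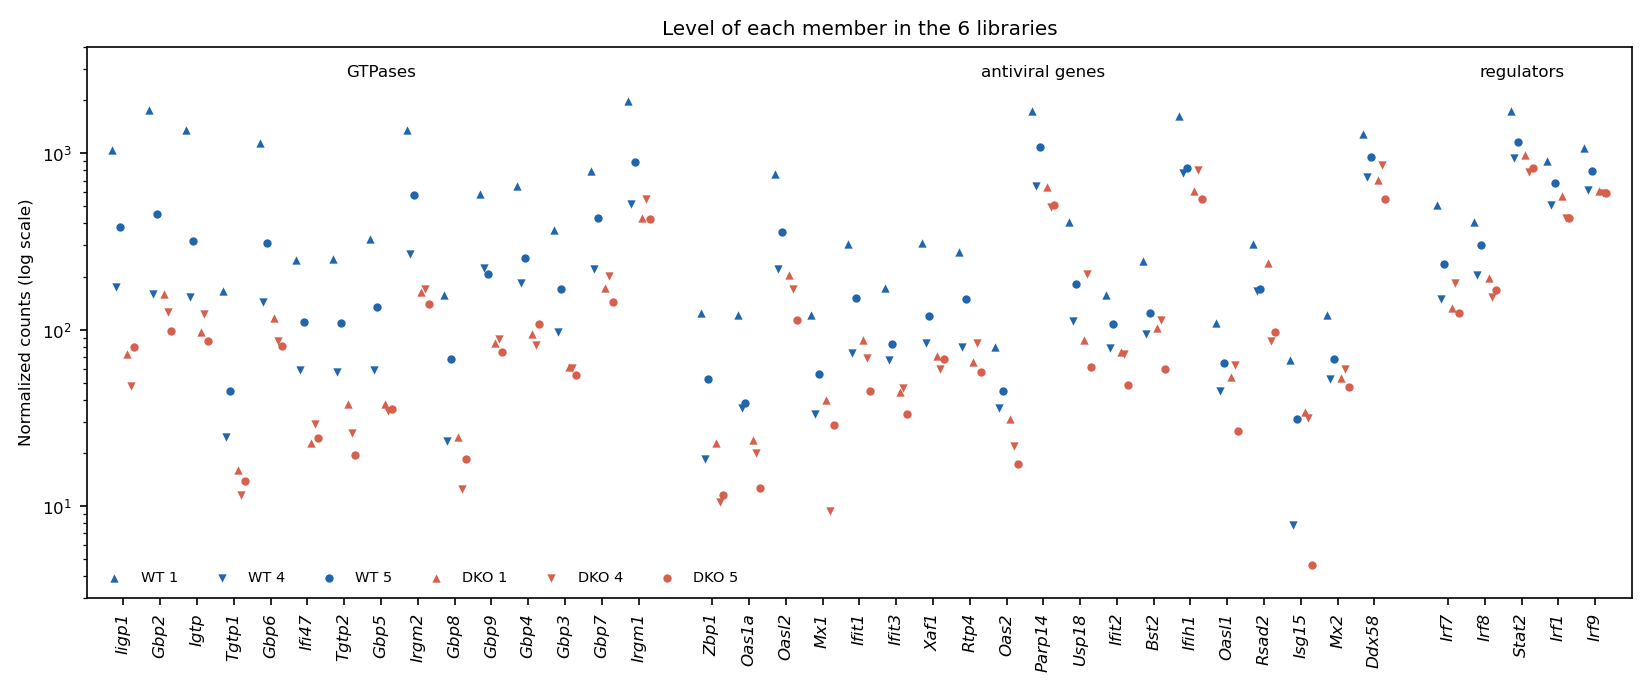
Normalized counts (log scale) of the 39 genes in each of the 6 libraries, ordered within each class by fold change, with WT libraries in blue and DKO libraries in red and the library number given by the shape of the point. WT 1 is the highest WT point in every gene, and 13 of the 15 GTPases have all 3 DKO points below all 3 WT points.

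The size of the difference depended on WT 1, whereas its direction mostly did not, and the number of genes passing depended on other libraries as well. Without WT 1 the median log2 fold changes were -1.30 for the GTPases, -0.62 for the antiviral genes and -0.32 for the regulators, and 38 of the 39 genes were still lower in DKO. Isg15 was the exception. With that library left out 9 GTPases, 0 antiviral genes and 0 regulators passed the DESeq2 threshold, against 0.919% of all rows and 0.578% in the lower direction. The 9 were Ifi47, Tgtp2, Iigp1, Irgm2, Igtp, Gbp3, Gbp4, Gbp6 and Gbp9, of which 7 had also passed with all 6 libraries. Unadjusted p-values under 0.05 were then seen in 15 of the 15 GTPases, 6 of the 19 antiviral genes and 1 of the 5 regulators, against 7.67% of all rows. The difference between the GTPase and antiviral medians was then -0.68. Leaving out DKO 4 or DKO 5 cost more calls, while the medians moved little. Without DKO 4 only Ifi47 passed, against 1.19% of all rows, at a GTPase median of -2.27, and without DKO 5 only Ifi47 and Tgtp2 did, against 1.04%, at a median of -2.16. Without WT 5 there were 7 (0.908% of all rows), without DKO 1 there were 11 (4.84%), and without WT 4 there were 32 (4.85%).

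**Figure D2:**
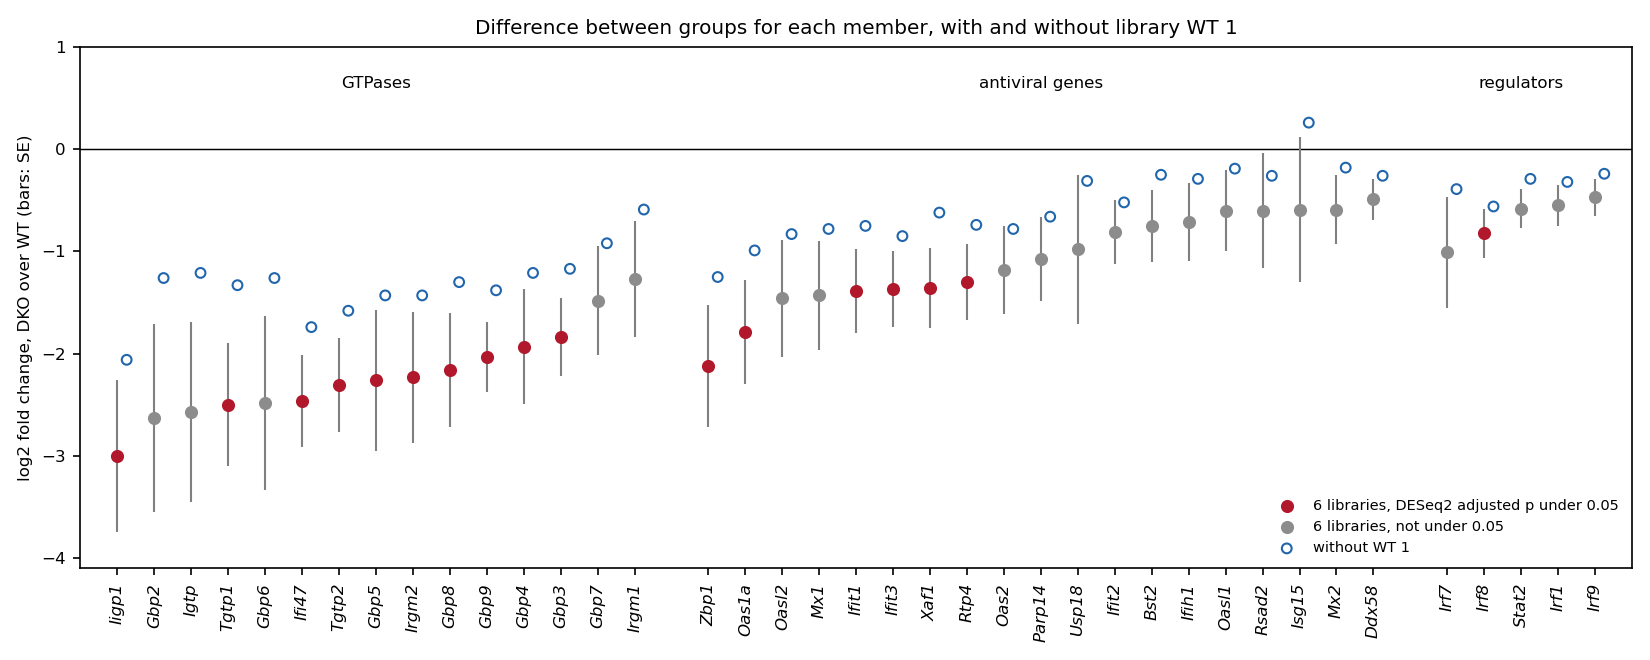
Log2 fold change of DKO over WT for each gene with its standard error (bars), filled red where the DESeq2 adjusted p-value was under 0.05 and grey where it was not, with the value without WT 1 as an open circle. The GTPases lie between -3.00 and -1.27 and the antiviral genes between -2.12 and -0.49, and without WT 1 all circles move toward 0, with Isg15 alone above it.

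Summing normalized counts over each class shows the same order by library. The GTPases summed to 12175, 2364 and 4471 in WT 1, 4 and 5 and to 1591, 1651 and 1403 in DKO 1, 4 and 5. The antiviral genes summed to 8309, 3364 and 4677 against 3198, 3278 and 2336, so that WT 4 lay only just above DKO 4 in this class. The regulators summed to 4638, 2413 and 3178 against 2483, 2142 and 2139, and here WT 4 lay below DKO 1. The GTPase sum divided by the antiviral sum of the same library, a ratio within each library that does not depend on its scaling, was 1.47, 0.703 and 0.956 in WT and 0.497, 0.504 and 0.601 in DKO. The lowest WT ratio was that of WT 4, and it lay above the highest DKO ratio. The smallest two-sided p-value that an exact permutation test can give for 3 libraries against 3 is 0.1, and none is given for sums over genes that were chosen on these values.

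The spread within the groups differed between the classes as well. The level in WT 1 was a median of 5.06 times that in WT 4 among the GTPases (range 2.62 to 11), compared with 2.64 times among the antiviral genes (1.76 to 8.60) and 1.86 times among the regulators. Within the DKO group the highest library was a median of 1.40 times the lowest for the GTPases, 1.81 times for the antiviral genes and 1.28 times for the regulators. The GTPases thus had the widest WT range of the classes, and in DKO they lay between the regulators and the antiviral genes, as a description of these 6 libraries.

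The IRG family comprises 7 of the GTPases, and 6 of them lie on chromosome 11, the chromosome of both targeted genes. Iigp1, on chromosome 18 and the best studied effector of the family, had the largest difference of all 39 genes. It had 1048, 174 and 382 normalized counts in the libraries WT 1, 4 and 5 and 73.1, 48.1 and 79.6 in DKO 1, 4 and 5 (log2 fold change -3.00, SE 0.74, DESeq2 adjusted p = 0.00451). The groups did not overlap, and WT 4 was 2.19 times the highest DKO library. Igtp, a regulatory IRG protein that keeps the effectors off the membranes of the host, had 1353, 154 and 320 against 96.8, 123 and 86.5 (log2 fold change -2.57, SE 0.88, DESeq2 adjusted p = 0.0762). Its groups did not overlap either, although most of its WT mean came from WT 1. Tgtp1, one of the near-identical effector pair Tgtp1 and Tgtp2, had 165, 24.5 and 44.8 against 16.1, 11.5 and 13.8 (log2 fold change -2.50, SE 0.60, DESeq2 adjusted p = 0.00316).

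Tgtp1 and Tgtp2 cannot be read as independent genes. Of all 50-base stretches of their transcripts, 81.2% of those of Tgtp1 and 86.6% of those of Tgtp2 occur in another gene, mostly in each other, and how reads shared between genes were counted is not given in the sources used here. Summed as 1 gene they had 416, 82.2 and 154 normalized counts in the WT and 54.1, 37.6 and 33.4 in the DKO libraries, without overlap. The same limit applies to Gbp6 (70.7%, mostly Gm43302), Oas1a (57.6%, Oas1g) and Ifit3 (51.2%, Ifit3b), and without these 5 genes the GTPase median less the antiviral median was -1.22, a setting added after the data were seen.

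Ifi47 passed more steadily than any other of the 39. It had 249, 58.7 and 111 normalized counts in the WT and 22.8, 29.3 and 24.2 in the DKO libraries (log2 fold change -2.46, SE 0.45, DESeq2 adjusted p = 1.42e-05). It passed the threshold in every DESeq2 fit that left out a library, including the fit without DKO 4, in which no other of the 39 passed. Without WT 1 its log2 fold change was -1.74 (DESeq2 adjusted p = 0.00858), that of Iigp1 was -2.06 (adjusted p = 1.06e-05), that of Igtp -1.21 (adjusted p = 0.0348) and that of Tgtp1 -1.33 (adjusted p = 0.391). The remaining IRG genes had log2 fold changes of -2.31 (Tgtp2), -2.23 (Irgm2) and -1.27 (Irgm1). Irgm1, which like Igtp and Irgm2 is a regulator of the effector GTPases, stood out for the smallest difference of the 15. It had 1969, 516 and 892 normalized counts in the WT and 429, 551 and 424 in the DKO libraries, and DKO 4 lay above WT 4 (DESeq2 adjusted p = 0.260).

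The GBP family, large GTPases that coat pathogen vacuoles, was represented by Gbp2, Gbp3, Gbp5 and Gbp7 from the cluster on chromosome 3 and by Gbp4, Gbp6, Gbp8 and Gbp9 from that on chromosome 5. The median log2 fold change was -2.05 for the first cluster and -2.10 for the second. Gbp2 had 1764, 160 and 452 normalized counts in the WT and 159, 126 and 98.0 in the DKO libraries (log2 fold change -2.63, SE 0.92, DESeq2 adjusted p = 0.0858). WT 1 was 11 times WT 4 for this gene, the widest WT range of the 39, and WT 4 and DKO 1 were nearly equal. Gbp6 had 1137, 144 and 310 against 117, 86.8 and 80.7 (log2 fold change -2.48, SE 0.85, DESeq2 adjusted p = 0.0760).

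Gbp9 had the narrowest WT range of the GTPases, and it was the gene in which WT 5 and not WT 4 was lowest. It had 584, 223 and 208 normalized counts in the WT and 84.4, 88.8 and 74.9 in the DKO libraries (log2 fold change -2.03, SE 0.34, DESeq2 adjusted p = 8.22e-07). Its lowest WT library was still above every DKO library, and without WT 1 its log2 fold change was -1.38 (DESeq2 adjusted p = 1.48e-06), against -1.26 (adjusted p = 0.507) for Gbp2 and -1.26 (adjusted p = 0.0349) for Gbp6. Of the others, Gbp3 (-1.84), Gbp4 (-1.93), Gbp5 (-2.26) and Gbp8 (-2.16) passed the DESeq2 threshold, and Gbp7 (-1.48, adjusted p = 0.10) did not. Gbp8 passed although its groups overlapped, with 23.5 normalized counts in WT 4 and 24.7 in DKO 1.

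The targeted genes lie on chromosome 11 too, and the values of GTPases on that chromosome and elsewhere were set side by side. The 6 on chromosome 11 lay 5.66 Mb or more from the targeted genes and had a median log2 fold change of -2.38, and the 9 on other chromosomes had a median of -2.16. Irf1 and Xaf1 lie on chromosome 11 as well, 10.1 and 7.78 Mb away, with log2 fold changes of -0.55 and -1.36.

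Among the antiviral genes, Zbp1, a sensor of Z-form nucleic acids that triggers cell death, had the largest difference. It had 125, 18.6 and 52.8 normalized counts in the WT and 22.8, 10.5 and 11.5 in the DKO libraries (log2 fold change -2.12, SE 0.60, DESeq2 adjusted p = 0.0192), but WT 4 lay below DKO 1. Oas1a, an oligoadenylate synthetase that activates an RNase on sensing double-stranded RNA, had 121, 36.2 and 38.5 against 23.7, 19.9 and 12.7 (log2 fold change -1.79, SE 0.51, DESeq2 adjusted p = 0.0228), without overlap. Oasl2, an oligoadenylate synthetase-like protein, had 762, 220 and 360 against 204, 169 and 114 (log2 fold change -1.46, SE 0.57, DESeq2 adjusted p = 0.151), again without overlap but with WT 4 close to DKO 1.

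Mx1 and Ifit1 overlapped between the groups. Mx1, the gene of a dynamin-like GTPase, had 121, 33.3 and 56.4 normalized counts in the WT and 39.8, 9.41 and 28.8 in the DKO libraries (log2 fold change -1.43, SE 0.53, DESeq2 adjusted p = 0.120). Whether these mice make a working Mx1 protein was not tested. Ifit1, which binds viral RNA that lacks a host cap, had 305, 73.4 and 152 against 87.3, 69.0 and 45.0 (log2 fold change -1.39, SE 0.41, DESeq2 adjusted p = 0.0280). In both genes DKO 1 lay above WT 4. Without WT 1 the log2 fold changes of Zbp1, Oas1a, Oasl2, Mx1 and Ifit1 were -1.25, -0.99, -0.83, -0.78 and -0.75, and none of these 5 passed the DESeq2 threshold.

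The other antiviral genes to pass were Ifit3 (-1.37), Xaf1 (-1.36) and Rtp4 (-1.30), of which Rtp4 overlapped between the groups. The remaining 13 of the class had log2 fold changes from -1.46 to -0.49 without passing, Oasl2 and Mx1 included, and 13 of the 19 had an unadjusted p-value under 0.05. Oas2 (-1.18), Parp14 (-1.07) and Ifit2 (-0.81) were among them, each with every DKO library below every WT library, whereas Bst2 (-0.75) and Oasl1 (-0.60) overlapped. Among the smaller differences of this range were those of sensors and of effectors. The cytosolic RNA sensors Ddx58 (RIG-I) and Ifih1 (MDA5) had -0.49 and -0.71, and Rsad2 (viperin), which makes a chain-terminating nucleotide, had -0.60. Mx2, which GENCODE annotates as a polymorphic pseudogene, had -0.59, and the ubiquitin-like Isg15 had -0.59.

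In some antiviral genes a single library of a group stood far from the others. Isg15 had 67.3, 7.83 and 31.3 normalized counts in the WT and 34.2, 31.4 and 4.61 in the DKO libraries (DESeq2 adjusted p = 0.841), so that the range within either group exceeded the difference between them. Rsad2 had 304, 166 and 171 against 239, 85.7 and 96.8, with DKO 1 above both WT 4 and WT 5 (DESeq2 adjusted p = 0.750). Usp18, the protease that removes Isg15 from proteins and damps type I interferon signalling, had 406, 112 and 181 against 87.3, 206 and 61.1, and here DKO 4 lay above 2 of the WT libraries (log2 fold change -0.98, DESeq2 adjusted p = 0.647). Which DKO library was high thus differed between these genes.

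The 5 regulators had the smallest median difference of the classes. Irf8, a factor of the myeloid and dendritic cell lineages that is itself induced by interferon-gamma, had 408, 205 and 303 normalized counts in the WT and 196, 154 and 167 in the DKO libraries (log2 fold change -0.82, SE 0.24, DESeq2 adjusted p = 0.0239). It was the only regulator to pass. Irf7, which amplifies type I interferon, had 508, 149 and 236 against 132, 185 and 125 (log2 fold change -1.01, SE 0.54, DESeq2 adjusted p = 0.399), with DKO 4 above WT 4. Irf1, the factor that relays interferon-gamma to ISRE-bearing genes, had 903, 506 and 682 against 574, 427 and 428 (log2 fold change -0.55, SE 0.20, DESeq2 adjusted p = 0.114).

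Stat2 and Irf9, which belong to the type I complex, were close to these. Stat2 had 1746, 938 and 1160 normalized counts in the WT and 972, 784 and 822 in the DKO libraries (log2 fold change -0.58, SE 0.19, DESeq2 adjusted p = 0.0711). Irf9 had 1075, 615 and 797 against 608, 592 and 597 (log2 fold change -0.47, SE 0.18, DESeq2 adjusted p = 0.134). The DKO values of Irf9 were within 1.03 times of each other, and WT 4 was 1.01 times the highest of them. Without WT 1 the log2 fold changes of Irf7, Irf8, Irf1, Stat2 and Irf9 were -0.39, -0.56, -0.32, -0.29 and -0.24, none of them past the DESeq2 threshold.

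Levels per kb of exon show which genes held most of the signal. In WT glands the highest GTPases were Gbp2 with 315 normalized counts per kb, Igtp with 301, Irgm2 with 200 and Irgm1 with 194. The lowest were Tgtp1 with 24.4 and Gbp8 with 24.2. How reads shared between genes were counted is not given, so the levels of Tgtp1, Tgtp2, Gbp6, Oas1a and Ifit3 per kb are uncertain. The means of Gbp2, Igtp, Irgm2 and Irgm1 rest on WT 1 and do not differ beyond the spread of the WT libraries. In DKO glands Irgm1 was highest with 80.5 per kb, followed by Gbp2 with 50.9, Igtp with 50.5 and Irgm2 with 42.6. Among the antiviral genes Bst2 (tetherin, 171 per kb), Ddx58 (140), Ifih1 (131) and Parp14 (124) led in WT glands, and the same 4 led in DKO glands with 101, 99.8, 80.0 and 59.2. The regulators Stat2 (216) and Irf1 (175) stood near Irgm2 and Irgm1 in WT glands, and at 145 and 120 they exceeded all of the GTPases in DKO glands.

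Promoters were examined for the elements that the interferon pathways use. The members were not chosen on the letters, but they were listed as interferon targets, which can be expected to hold such elements. The shares below are therefore a description. RefSeq promoters of GRCm38.p6, 250 bases before to 50 after each start, were matched for 27 of the 39 genes (10 GTPases, 12 antiviral genes and 5 regulators). The unmatched GTPases were Iigp1 and the chromosome 5 genes Gbp4, Gbp6, Gbp8 and Gbp9, whose promoters were not examined. ISRE was searched as GAAANNGAAA, which reads TTTCNNTTTC on the other strand, and GAS as TTCNNNGAA, which reads the same on both strands. ISRE letters were found in 9 of the 10 GTPases, 8 of the 12 antiviral genes and 1 of the 5 regulators, compared with 3.44% of all 32851 promoters (3.99% of their 27025 genes). GAS letters were found in 6 of the 10 GTPases, 3 of the 12 antiviral genes and 2 of the 5 regulators, compared with 8.30% of all promoters (9.55% of their genes). Matches overlapped one another within Gbp3, Irgm1, Isg15, Oas1a and Bst2. A match describes the letters of the window and not binding, and Ifi47 held neither element in its window.

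The next windows are shown because 4 IRG genes, Tgtp1, Tgtp2, Irgm2 and Igtp, held both elements in the same arrangement, a GAS whose first base lies 11 bases before that of an ISRE. They run from 120 to 21 bases before the RefSeq start, read on the strand of the gene, with GAS and ISRE letters in capitals. None of them overlaps a GENCODE exon. The window of Tgtp1 and that of Irgm2 lie in an intron of longer transcripts of the same genes, and the other windows here and in the next set, apart from that of Gbp2, lie upstream of the gene.
Tgtp1 (chr11:48992267-48992366, minus strand): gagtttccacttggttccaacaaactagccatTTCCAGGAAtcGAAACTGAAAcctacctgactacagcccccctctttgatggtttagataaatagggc
Tgtp2 (chr11:49064233-49064332, minus strand): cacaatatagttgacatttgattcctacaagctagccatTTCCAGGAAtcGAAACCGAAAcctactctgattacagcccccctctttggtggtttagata
Irgm2 (chr11:58214857-58214956, plus strand): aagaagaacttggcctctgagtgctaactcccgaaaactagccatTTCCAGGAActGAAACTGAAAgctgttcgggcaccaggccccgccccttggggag
Igtp (chr11:58199436-58199535, plus strand): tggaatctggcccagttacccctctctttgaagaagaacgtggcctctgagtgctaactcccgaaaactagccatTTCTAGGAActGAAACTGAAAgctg

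The arrangement occurred in 5 of all 32851 promoters (0.0152%), those of these 4 genes and of Gm12185, a neighbouring gene whose exons overlap Tgtp1. The spacing was chosen after the sequences were seen. The 4 windows also shared a run of 11 bases that ends in the first bases of the GAS, CTAGCCATTTC, which 6 of all promoters hold. The promoters are of related genes and are not independent, and those of Tgtp1 and Tgtp2 were identical at 83.3% of 269 aligned bases. In GENCODE, Gm12185 starts at base 48992226 of the minus strand, just downstream of the Tgtp1 window. Its promoter and that of Tgtp1 may therefore hold the same site, which was not examined. Gm12185, named here after its promoter was found, had 37.6, 6.85 and 18.8 normalized counts in the WT and 3.80, 1.05 and 2.31 in the DKO libraries (log2 fold change -3.13, SE 0.89, DESeq2 adjusted p = 0.0223). Its reads cannot be told apart from those of Tgtp1 where the exons overlap.

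The second set shows how the elements lay in other genes of the list. Gbp7 held 2 GAS matches before its ISRE, the antiviral genes Isg15 and Ifit1 held ISRE matches alone, and Irf1 held a GAS alone. Only the 30 bases around the ISRE of Gbp2 are shown, where the window overlaps a GENCODE exon.
Gbp2 (chr3:142620594-142620623, plus strand): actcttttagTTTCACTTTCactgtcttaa
Gbp7 (chr3:142530216-142530315, plus strand): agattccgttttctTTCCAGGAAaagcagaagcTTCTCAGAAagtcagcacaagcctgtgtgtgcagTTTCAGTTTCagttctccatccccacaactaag
Isg15 (chr4:156200839-156200938, minus strand): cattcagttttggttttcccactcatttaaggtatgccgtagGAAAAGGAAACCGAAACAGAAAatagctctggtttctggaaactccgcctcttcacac
Ifit1 (chr19:34640769-34640868, plus strand): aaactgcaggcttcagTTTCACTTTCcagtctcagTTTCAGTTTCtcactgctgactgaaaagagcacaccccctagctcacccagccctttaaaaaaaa
Irf1 (chr11:53769894-53769993, plus strand): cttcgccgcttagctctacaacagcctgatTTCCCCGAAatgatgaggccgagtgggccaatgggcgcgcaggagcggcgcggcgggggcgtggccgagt

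**Figure D3:**
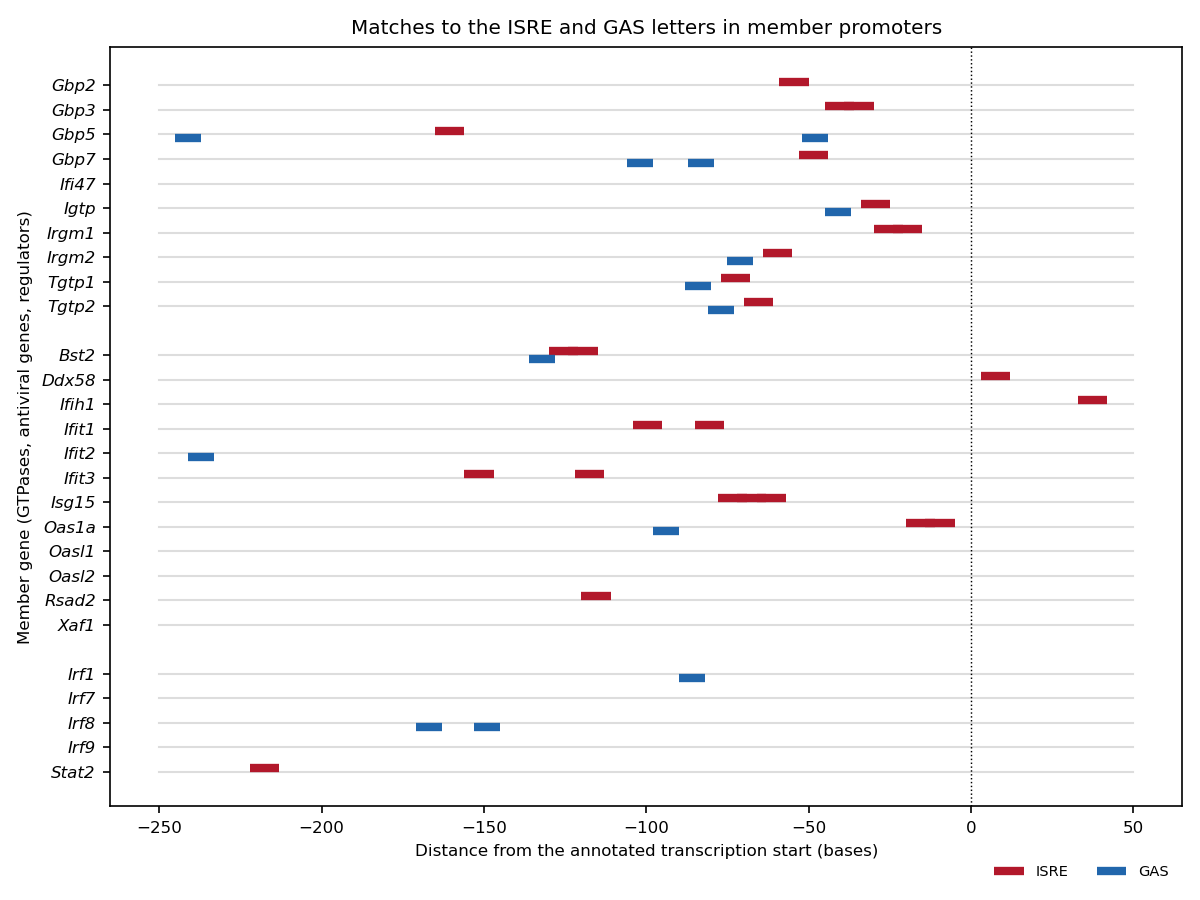
Positions of ISRE (red) and GAS (blue) matches in the promoters of the 27 matched genes, as the distance in bases from the annotated transcription start (dotted line), with 1 grey line per gene. Tgtp1, Tgtp2, Irgm2 and Igtp each show a GAS directly before an ISRE, and Ifi47, Oasl1, Oasl2, Xaf1, Irf7 and Irf9 show no match.

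The other genes of the pathway were taken from lists chosen with earlier results of these data known. Of 9 interferon genes, 7 were at 0 counts throughout. A count of 0 allows up to 3 counts by counting error alone, or 0.127 CPM in the shallowest library. Ifng, the gene of interferon-gamma itself, had 1, 1 and 3 counts in WT and 1, 0 and 0 in DKO, and Ifnl2 had a single count in WT 5, so that no difference in a ligand was detectable at this depth. Of 10 receptor and signalling genes 0 passed by DESeq2, edgeR or limma-voom, and their median log2 fold change was -0.18. An unadjusted DESeq2 p-value under 0.05 was seen in 3 of the 10, against 12.2% of all rows. The interferon-gamma receptor chain Ifngr1 had 490, 382 and 491 normalized counts in the WT and 342, 340 and 318 in the DKO libraries (log2 fold change -0.45, DESeq2 adjusted p = 0.0655), without overlap. Its partner chain Ifngr2 had 293, 286 and 372 against 314, 300 and 295 (log2 fold change -0.06, DESeq2 adjusted p = 0.938), with overlapping groups. The type I receptor chain Ifnar2 had 320, 258 and 258 against 271, 287 and 312 (log2 fold change 0.06, DESeq2 adjusted p = 0.943), with overlapping groups, and its partner chain Ifnar1 had 657, 641 and 659 against 564, 531 and 591 (log2 fold change -0.22, DESeq2 adjusted p = 0.389), without overlap. Every DKO library thus lay below every WT library in 1 chain of either receptor, an order that 10.5% of all rows tested showed. None of the 4 chains passed, and nothing is read from that order. Of the 4 inhibitors (Socs1, Socs3, Ptpn2 and Pias1) 0 passed by the 3 tools, with 0 at an unadjusted DESeq2 p-value under 0.05 and a median of -0.33.

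Interferon-inducible GTPases outside the 39 were also lower in DKO. Of 11 listed, 9 had a row, 5 fell by DESeq2 and 0 rose, and the median log2 fold change was -2.14. For this and the next lists, 2.18% of all rows with an adjusted p-value fell. The 5 were Gm12250 (-2.90), Gm4951 (-2.70), F830016B08Rik (-1.90), 9930111J21Rik2 (-1.05) and the very large GTPase Gvin1 (-2.29). Of 30 further antiviral genes 6 fell and 0 rose, with a median of -0.68, and the 6 were Ifitm3 (-0.83), which blocks viral entry, Trim30a (-1.12), the dNTP hydrolase Samhd1 (-0.66), the DNA sensor gene Ifi204 (-1.08), Herc6 (-0.90), the ligase that attaches Isg15, and Dtx3l (-0.63). Of 12 other interferon-gamma-induced genes 6 fell and 0 rose, with a median of -1.61. They included the chemokine Cxcl9, which had 143, 14.7 and 62.7 normalized counts in the WT and 4.74, 4.18 and 3.46 in the DKO libraries (log2 fold change -4.14, DESeq2 adjusted p = 5.20e-06). Ciita (-1.61) and Nlrc5 (-1.88), also among them, switch on the MHC class II and class I genes. Cd274 (-1.61), Psmb10 (-1.05) and Serpina3g (-2.14) were the others. By edgeR and by limma-voom 0 genes of these 3 lists passed. Without WT 1 the DESeq2 counts were 0, 0 and 1, where 0.919% of all rows passed.

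Leukocyte markers were lower in DKO too, and among the WT libraries their sums took the order of the interferon-inducible genes. By gene, WT 1 was highest and WT 4 lowest in 6 of 6 T cell markers, 6 of 6 B and plasma cell markers, 5 of 6 NK cell markers, 3 of 3 pan-leukocyte markers and 4 of 8 macrophage and dendritic cell markers. Of all rows tested 19.7% showed that order, and the marker lists were chosen with earlier results of these data known. Among the DKO libraries all 5 marker sums were highest in DKO 1 and lowest in DKO 5. The GTPase and antiviral sums were also lowest in DKO 5, with DKO 4 slightly above DKO 1 (1651 against 1591, 3278 against 3198). The regulator sum was highest in DKO 1. The median over GTPases of the log2 difference from the DKO mean was 0.06, 0.01 and -0.13 in DKO 1, 4 and 5. For the antiviral genes it was 0.24, 0.16 and -0.37, so that by this median DKO 1 was highest and DKO 5 lowest in both classes. The 3 pan-leukocyte markers Ptprc, Cd52 and Laptm5 summed to 2097, 941 and 1455 normalized counts in the WT and 832, 615 and 468 in the DKO libraries. By DESeq2 2 of 3 fell, where 2.18% of all rows with an adjusted p-value did. The 6 T cell markers, whose cells make interferon-gamma, summed to 218, 39.1 and 113 against 13.3, 8.36 and 4.61, and 5 of 6 fell. Cd8a had 0 counts in all 3 DKO libraries and 37.6, 9.78 and 22.4 normalized counts in WT. NK cell markers summed to 272, 117 and 212 against 111, 77.3 and 71.5 (1 of 6 fell), and macrophage and dendritic cell markers to 2508, 1533 and 2384 against 1546, 1308 and 1113 (3 of 8 fell). The B and plasma cell markers summed to 3916, 944 and 2899 against 1095, 702 and 250, with WT 4 below DKO 1 (2 of 6 fell). By edgeR and by limma-voom 0 of these markers passed. Without WT 1 the DESeq2 counts were 1, 1, 0, 0 and 1 in that order, where 0.919% of all rows passed. No marker other than Cd8a was at 0 in all libraries of a group. Their part in the member differences was not tested.

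Set against these markers, the classes gave different orders of the groups. Divided by Ptprc of the same library, the GTPase sum was 8.12, 3.83 and 4.44 in WT and 2.93, 4.62 and 4.87 in DKO, so that the groups overlapped. The antiviral sum divided by Ptprc was 5.54, 5.45 and 4.65 in WT and 5.88, 9.17 and 8.10 in DKO, with every DKO library above every WT library. Divided by the macrophage and dendritic cell sum instead, the GTPases stood at 4.86, 1.54 and 1.88 against 1.03, 1.26 and 1.26 and did not overlap, and the antiviral genes at 3.31, 2.19 and 1.96 against 2.07, 2.51 and 2.10 did. Which order the groups took thus depended on the denominator. These ratios were chosen after the values were seen.

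**Figure D4:**
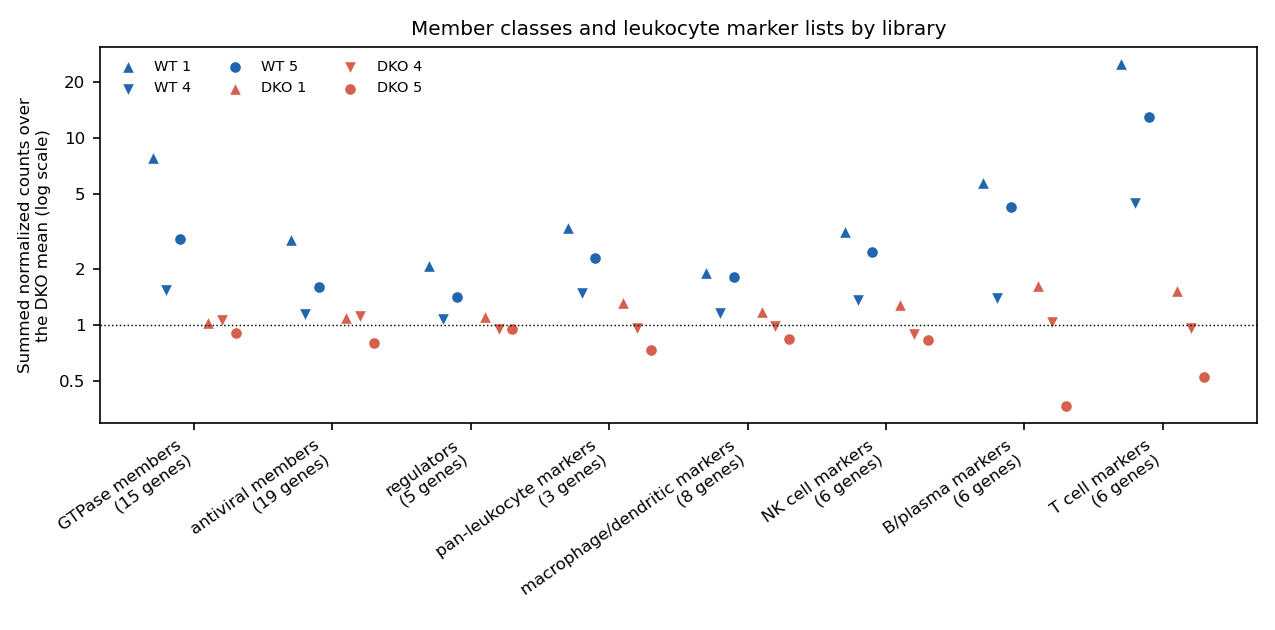
Summed normalized counts of the 3 classes of members and of 5 leukocyte marker lists in each library, divided by the mean of the 3 DKO libraries (dotted line at 1, log scale), with WT in blue and DKO in red. WT 1 is highest and WT 4 lowest of the WT libraries in all 8 sums, and the T cell markers show the widest separation of the groups.

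**Figure D5:**
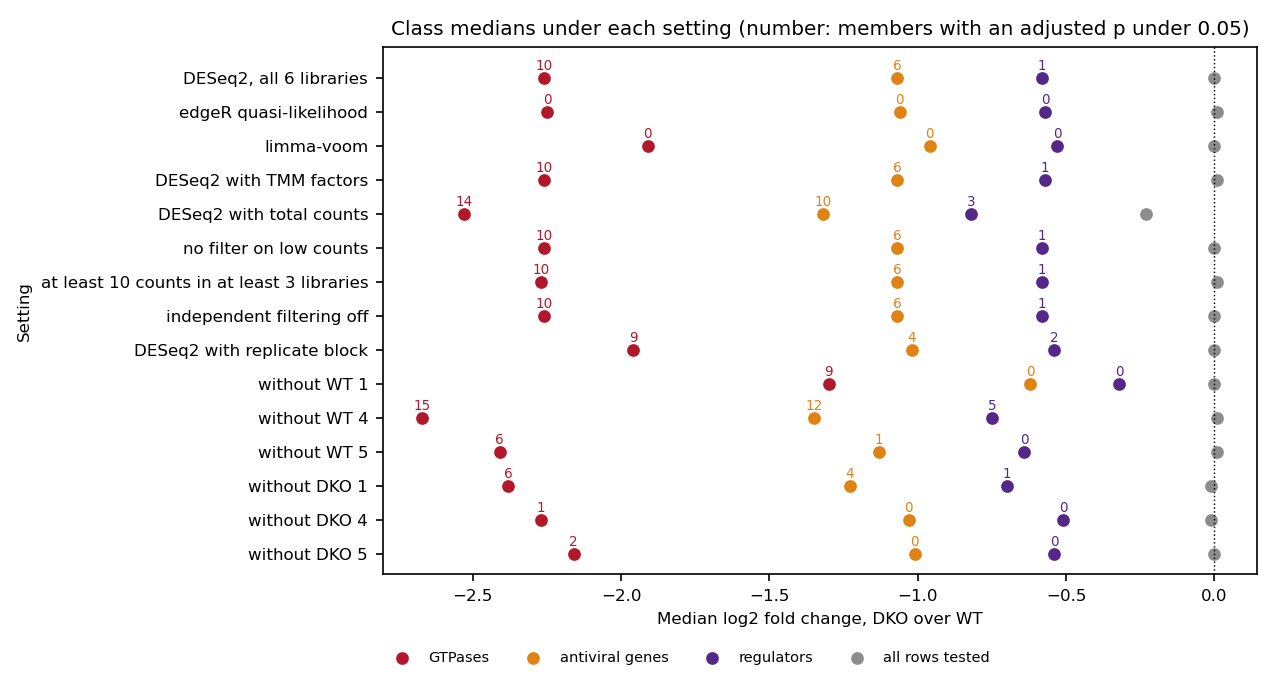
Median log2 fold change of the GTPases, antiviral genes and regulators and of all rows tested under each setting, with the number of members passing an adjusted p-value of 0.05 above each point. The order of the 3 classes is the same under every setting shown, the GTPase median ranges from -2.67 without WT 4 to -1.30 without WT 1, and the number of GTPases passing ranges from 0 to 15.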

How the data were processed

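RNA of 6 SMGs was sequenced from unstranded Nextera XT libraries on a HiSeq2500. Raw read counts by gene symbol were deposited by the authors, 43280 rows unfiltered and 17527 filtered, and the unfiltered counts were analysed. The submitters' processing notes name STAR 2.5.2a, DESeq2, edgeR and limma, and the builds GRCh38, GRCm38 and mm10. The counting tool, the annotation and the treatment of reads shared between genes are not given in the sources used here, and without strand, reads of overlapping genes cannot be told apart. The deposited normalized table was not used.

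DESeq2 1.42.0 in R 4.3.3 was fitted to the 18606 rows whose 6 counts summed to 10 or more, with median-of-ratios size factors (0.867 to 1.12), the two-sided Wald test, unshrunken fold changes and Benjamini-Hochberg adjustment, as the study's methods name it, and 16050 rows received an adjusted p-value. Normalized counts are counts divided by the size factor. Alternatives were edgeR 4.0.16 (quasi-likelihood), limma 3.58.1 (voom), TMM or total-count factors, other count filters, no independent filtering, each library left out and a block for the replicate number. The fits were tested on simulated counts in which every gene had the same dispersion (spread beyond counting error). That test does not cover the wide spread of the members between the WT libraries. No pair of libraries agreed within sampling noise (chi-square per degree of freedom 16.8 to 43.4).

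The members and all lists were chosen with earlier results of these data known. Of 150 list entries, 2 had no row (Gbp2b and Gbp10) and 5 were matched by an older symbol. A gene of the signalling list is not reported here by name. All 39 members are named in the text, with values by library for the 5 largest absolute fold changes among GTPases and among antiviral genes whose mean normalized count was 20 or more, and for the 5 regulators. Irgm1, Ifi47, Gbp9, Isg15, Rsad2, Usp18 and Gm12185 were given in full after their values were seen. Coordinates, exon lengths and shared 50-base stretches come from GENCODE M21 (GRCm38), and promoters from RefSeq (GRCm38.p6).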

Additional observations from a re-analysis of the deposited data

How the results depend on the processing

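The direction of the member differences held under nearly all alternatives, and the number passing the threshold did not. Of 546 member values under alternatives, 545 were lower in DKO. The reversed one was Isg15, with a log2 fold change of 0.26 without WT 1, and its values with 1 library left out ranged from -1.07 to 0.26. All alternatives reuse the same counts, several barely change a fold change, and the members were listed with this contrast known. The direction was thus largely set in advance, and the tally is a description. A call was lost in 98 and gained in 32. By edgeR 10 genes passed over all rows and by limma-voom 7, with 0 members and 0 of the other GTPases, other antiviral genes and other interferon-gamma-induced genes under either. With total counts as size factors, which moved the median of all rows by -0.23, 1469 genes passed over all rows, 27 members (14 GTPases, 10 antiviral genes and 3 regulators), 16 other antiviral genes, 3 receptor and signalling genes and 1 inhibitor.

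With 1 library left out, 146 (without WT 5) to 815 (without WT 4) genes passed over all rows and 1 (without DKO 4) to 32 (without WT 4) members, with 9 without WT 1, 7 without WT 5, 11 without DKO 1 and 2 without DKO 5. The median log2 fold change ranged from -2.67 to -1.30 for the GTPases and the difference between the GTPase and antiviral medians from -1.32 to -0.68, in both cases from without WT 4 to without WT 1. The counts ranged from 0 to 2 for receptors and signalling, from 0 to 5 for the other GTPases, from 0 to 13 for the other antiviral genes and from 1 to 10 for the other interferon-gamma-induced genes. The causes were not tested.

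No pairing by replicate number was seen, with deviations of same-numbered libraries correlated at -0.041, -0.008 and -0.166 and those of the others at -0.31 to 0.333. With 3 libraries a group these values cannot exclude a pairing. With the replicate number as a block 343 genes passed over all rows, 15 members (12 of them also without the block) and 2 other GTPases. With regulators assigned to the classes (-1.23), with Tgtp1 and Tgtp2 summed (-1.17) or with members above a mean of 20 only (-1.19), the difference between the medians stayed near -1.19.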
